A study of Mus musculus with 8 samples.

Results

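The genes described here encode the cell surface proteins through which human adenoviruses commonly attach to and enter cells: Cxadr, the coxsackievirus and adenovirus receptor (CAR), and the integrin subunit genes Itgav, Itgb1, Itgb3 and Itgb5. All probes whose platform gene symbol is one of these 5 genes were taken, which gave 5 of the 16594 named genes and 8 of the 25697 probes on the array: 3 for Cxadr, 2 for Itgb1 and 1 for each of the others. Cxadr was picked by its measured probe values, because AdeCre cells differed from the 2 kinds of control cells in opposite directions. Its values are therefore given as a description without a test. The integrin probes were tested.

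The cells were primary limb bud cells (fore- and hindlimb) of mouse embryos at E11.5, of the strain labelled 129XB6-Sox4fl/fl11fl/fl, whose Sox4 and Sox11 genes are flanked by recombination sites for Cre. After 6 h in culture the cells received an adenovirus that expresses Cre recombinase for 24 h (AdeCre, labelled mutant, 3 arrays) or an adenovirus that expresses LacZ for 24 h (AdeLacZ, labelled treated control, 3 arrays), or were left untreated (2 arrays). The untreated cells carry the label wild type for genotype but the same floxed strain label, and no time after the first 6 h is given for them. The serotype and dose of the viruses are not given in the sources used here, no arm gave AdeCre to cells without floxed alleles, and nothing states that replicates were separate cultures, so the p-values reflect the spread between arrays, which may be technical.

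Attachment and entry are separate steps for the adenoviruses best studied as vectors. The fibre of the capsid binds CAR, a cell adhesion molecule of the immunoglobulin superfamily that normally sits at epithelial and cardiac cell junctions. The penton base then binds integrins that contain the alpha-v subunit through an RGD motif, which leads to uptake through clathrin-coated pits, escape from the endosome and transport along microtubules to the nuclear pore. In limb mesenchyme the same integrins serve as receptors for fibronectin, vitronectin and other matrix proteins.

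Each value is a background-subtracted probe intensity on a linear scale, and the arrays share 1 distribution of intensities. Depending on the array, 14358 to 14385 probes lay above a detection floor of 8.87 to 8.93 intensity units. Precision is limited by having 2 or 3 arrays a group. Of the 13 limb mesenchyme markers with a named probe, 12 were above the floor on all 8 arrays, with a summed intensity of 3390 to 3735 in AdeCre cells, 3432 to 3747 in AdeLacZ cells and 3651 to 3915 in untreated cells. Single markers moved both ways beneath this sum. In AdeCre against AdeLacZ cells 0 rose and 2 fell (Lhx9 by -0.53 and Hand2 by -0.47), where 1.59% and 3.44% of all tested probes did. In AdeCre against untreated cells 1 rose and 3 fell (Meis2 by 0.99, Hoxd13 by -1.05, Twist1 by -0.53 and Lhx9 by -0.39), where 6.61% and 7.08% did. In AdeLacZ against untreated cells 1 rose and 1 fell (Meis2 by 1.08 and Twist1 by -0.66), where 2.73% and 2.5% did. Sox4 fell by 1.31 ± 0.13 on the log2 scale in AdeCre against AdeLacZ cells (SE, limma adjusted p = 0.00114). Its intensity was 10.9 to 12.9 units in AdeCre cells, close to the floor, against 66.5 to 78.1 in AdeLacZ cells. The offset used in the background correction shrinks this log2 difference. The untreated arrays stood apart from each other in interferon-induced genes. The intensity of Usp18 was 1450 to 1729 in AdeCre cells and 1764 to 2042 in AdeLacZ cells, against 27.8 in untreated replicate 1 and 466 in untreated replicate 2. Several results against untreated cells are also given without untreated replicate 2. The limb mesenchyme counts are given only with both untreated arrays. Without untreated replicate 2 the median log2 difference of those markers in AdeCre against untreated cells was -0.12, against -0.15 with it.

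Cxadr was measured by 3 probes, which differed in their patterns. The platform annotation ties ILMN_2514377 to one RefSeq transcript of Cxadr, and ILMN_3018017 and ILMN_3089725 to another. ILMN_2514377 was chosen for its pattern: it was brightest in AdeLacZ cells, intermediate in AdeCre cells and close to the detection floor in untreated cells. Its intensity was 37.0, 30.2 and 46.4 units in AdeCre replicates 1, 2 and 3, against 117, 69.1 and 64.6 units in AdeLacZ replicates 1, 2 and 3 and 7.09 and 17.9 units in untreated replicates 1 and 2. No group overlapped another in this order, and untreated replicate 1 lay below the floor. The AdeLacZ group was the most spread, with replicate 1 well above the other two.

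On the log2 scale ILMN_2514377 averaged 6.07 ± 0.17 in AdeCre cells (SD, n = 3), 6.79 ± 0.35 in AdeLacZ cells (SD, n = 3) and 5.39 ± 0.26 in untreated cells (SD, n = 2). AdeCre cells were thus lower than AdeLacZ cells by a log2 difference of -0.72 ± 0.18 (SE) and higher than untreated cells by 0.68 ± 0.20 (SE). AdeLacZ cells were higher than untreated cells by 1.41 ± 0.20 (SE). These sizes depend on the background correction, since the untreated values lie near the floor: without it the differences were -1.11, 1.56 and 2.67, and with a larger offset of 50 they were -0.52, 0.41 and 0.94. Without untreated replicate 2 the difference of AdeCre from untreated cells was 0.87, and without untreated replicate 1 it was 0.50. For AdeLacZ against untreated cells the same fits gave 1.59 and 1.22. The arrays of AdeCre cells lay wholly between the other groups in this order for 140 of the 15944 tested probes, or 0.878%. The mirrored order, with AdeCre cells above AdeLacZ and below untreated cells, held for 137 probes, or 0.859%.

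The brightest Cxadr probe, ILMN_3018017, did not share this order. Its intensity was 132, 162 and 146 units in AdeCre replicates 1, 2 and 3, against 195, 217 and 214 units in AdeLacZ replicates 1, 2 and 3 and 233 and 163 units in untreated replicates 1 and 2. The AdeCre arrays were below those of both other groups, though the gap to untreated replicate 2 was only that between 162 and 163 units. The untreated arrays lay on either side of the AdeLacZ arrays. AdeCre cells differed from AdeLacZ cells by -0.44 ± 0.13 on the log2 scale (SE) and from untreated cells by -0.35 ± 0.14 (SE). AdeLacZ cells differed from untreated cells by 0.09 ± 0.14 (SE), which changed sign to -0.14 without untreated replicate 2 and was 0.31 without untreated replicate 1. The difference of AdeCre from untreated cells was -0.58 and -0.13 in those fits.

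The third probe, ILMN_3089725, was dim in every group. It read 16.1, 10.4 and 10.2 units in AdeCre replicates 1, 2 and 3, against 12.7, 24.4 and 10.7 units in AdeLacZ replicates 1, 2 and 3 and 17.2 and 26.4 units in untreated replicates 1 and 2. All 8 values exceeded the floor, the AdeCre arrays lay just below the untreated arrays, and the AdeLacZ group overlapped both. Its log2 differences were -0.11 ± 0.13 for AdeCre against AdeLacZ cells, -0.29 ± 0.15 for AdeCre against untreated cells and -0.18 ± 0.15 for AdeLacZ against untreated cells (SE).

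All 3 Cxadr probes had a lower mean in AdeCre than in AdeLacZ cells, and the AdeCre arrays lay wholly below for 2 of them (13.8% of all tested probes). Cxadr was picked on this contrast, so nothing is read from that count. The probes parted in the comparisons with untreated cells, where ILMN_2514377 was higher in both virus arms and the others were not. Within an array, the log2 signal of ILMN_2514377 minus that of ILMN_3018017 ran from -1.68 to -1.21 in AdeCre cells and from -1.37 to -0.61 in AdeLacZ cells, against -2.83 and -2.01 in untreated cells. This restates the pattern for which ILMN_2514377 was picked, and the virus arms overlapped each other. The probe sequences were not used here, so whether the probes read the same transcripts of Cxadr was not tested.

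**Figure D1:**
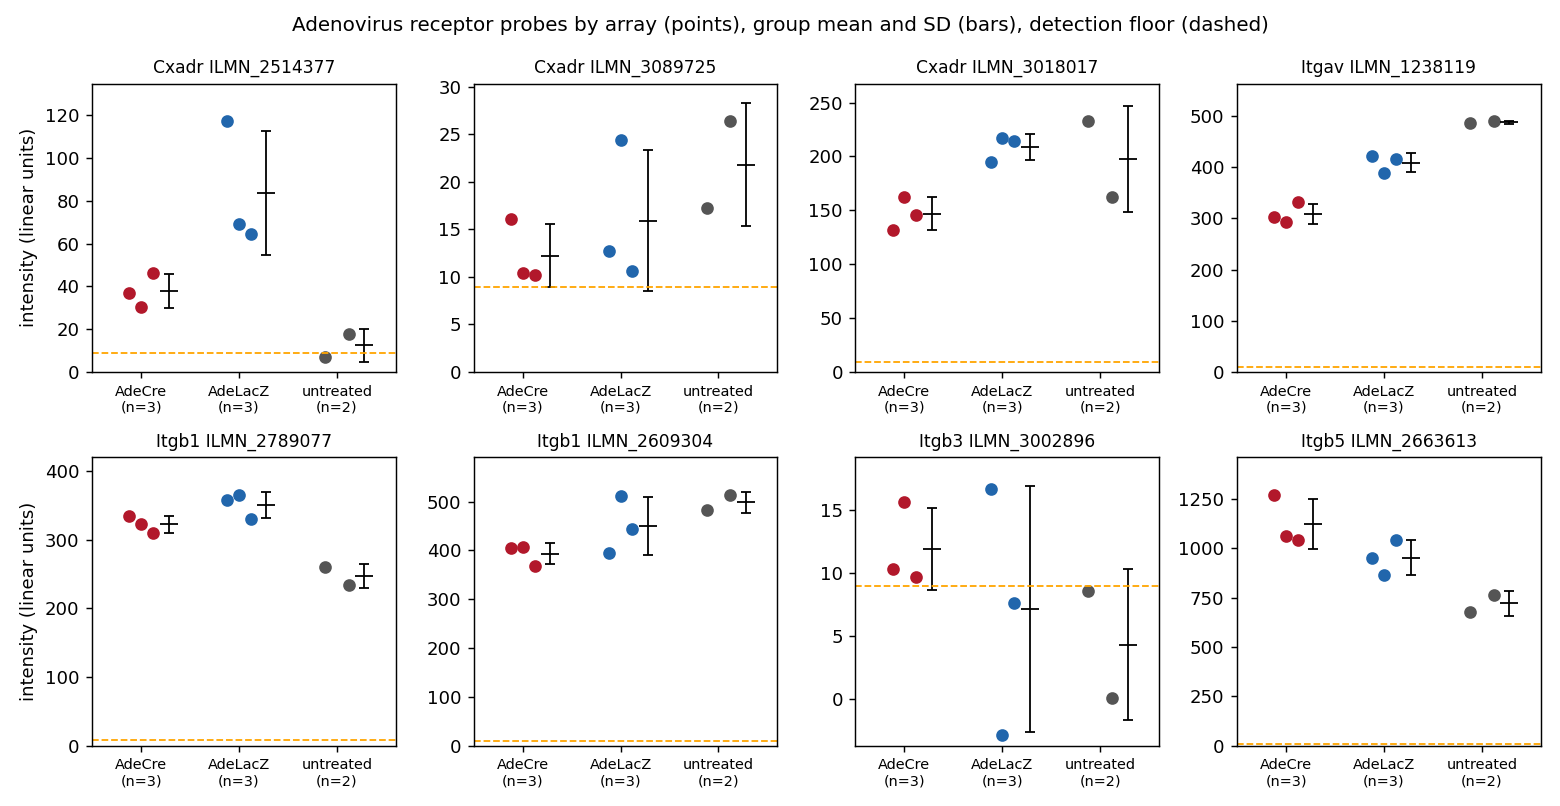
Intensity in linear units (vertical axis, one scale per panel) of the 8 probes on each array (points, replicates in order from left to right) in AdeCre, AdeLacZ and untreated cells. Black bars give the group mean and SD, and the dashed line the highest detection floor, 8.93 units. Cxadr probe ILMN_2514377 reads 30.2 to 46.4 units in AdeCre cells, 64.6 to 117 in AdeLacZ cells and 7.09 and 17.9 in untreated cells, while ILMN_3018017 does not show this order.

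Markers of other cell types were measured on the same arrays. Among 15 surface ectoderm markers with a named probe, 9 were above the floor on all arrays and 4 (Krt5, Grhl3, Esrp1 and Wnt6) on none. Their summed intensity was 1942 to 2088 in AdeCre cells and 1674 to 1742 in AdeLacZ cells, against 1455 to 1494 in untreated cells. Of 11 tested, 1 rose in AdeCre against AdeLacZ cells (1.59% of all tested probes rose). In AdeCre against untreated cells 3 rose (6.61%) and 1 fell (7.08%), and in AdeLacZ against untreated cells 1 rose (2.73%). The sum of endothelial markers was 1731 to 1819 in AdeCre cells and 1391 to 1582 in AdeLacZ cells, against 1427 to 1509 in untreated cells. Of 6 tested, 1 rose (6.61%) and 1 fell (7.08%) in AdeCre and 1 fell (2.5%) in AdeLacZ against untreated cells. For markers of neurons and Schwann cells the sum was 230 to 285 in AdeCre cells and 391 to 437 in AdeLacZ cells, against 287 to 312 in untreated cells. Of those 6 markers 3 had a named probe, and 1 was above the floor on all arrays. Of the 3, 2 fell in AdeCre against AdeLacZ cells (3.44%). Against untreated cells 1 fell in AdeCre (7.08%) and 1 rose in AdeLacZ cells (2.73%). Macrophage markers had a summed intensity of 90.4 to 106 in AdeCre cells and 110 to 129 in AdeLacZ cells, against 338 to 499 in untreated cells, and 5 and 2 of 6 tested fell in these arms against untreated cells, where 7.08% and 2.5% of all tested probes fell. Without untreated replicate 2 the median log2 differences of the macrophage markers were -0.90 in AdeCre and -0.93 in AdeLacZ against untreated cells. Those of the ectoderm markers were 0.23 and 0.10. The sum of erythroid markers was 1314 to 1896 in AdeCre cells and 4177 to 4745 in AdeLacZ cells, against 6100 to 7224 in untreated cells. Of 5 tested, 3 fell in AdeCre against AdeLacZ cells (3.44% of all tested probes fell). Against untreated cells 4 fell in AdeCre (7.08%) and 1 in AdeLacZ cells (2.5%). The part of these cell types in the receptor values was not tested, and in RNA from a whole culture fewer cells of a type and less RNA per cell cannot be told apart.

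The integrin subunits followed. Of the 5 integrin probes, 1 passed in AdeCre against AdeLacZ cells (5.03% of all tested probes passed), 2 passed in AdeCre against untreated cells (13.7%) and 1 passed in AdeLacZ against untreated cells (5.23%), where passing means a Benjamini-Hochberg adjusted p under 0.05 in limma over all 15944 tested probes. Itgb3 met the filter on low values through its AdeCre arrays alone and is left out of the counts of separate arrays. It remains among the 5 probes in the counts of passing probes, where it passed in no comparison. The arrays of the groups did not overlap for 1, 4 and 3 of the other 4 probes in these comparisons, against 28.3%, 43.2% and 38.3% of all tested probes. In AdeCre against untreated cells 1 integrin probe rose (6.61% of all tested probes rose) and 1 fell (7.08%), and of the 4 probes 2 lay wholly above (21.9%) and 2 wholly below (21.3%). In AdeLacZ against untreated cells 1 rose (2.73%) and 0 fell (2.5%). In AdeCre against AdeLacZ cells 0 rose (1.59%) and 1 fell (3.44%). Counts without untreated replicate 2 are not given, since 1 untreated array is then left. The effect of leaving out arrays is given for each gene below.

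Itgav, which encodes the alpha-v chain common to the integrins that bind the penton base, fell in AdeCre cells against both controls. Its probe ILMN_1238119 read 304, 294 and 331 units in AdeCre replicates 1, 2 and 3, against 423, 389 and 416 units in AdeLacZ replicates 1, 2 and 3 and 486 and 490 units in untreated replicates 1 and 2. The 3 groups were separate and in the order AdeCre, AdeLacZ, untreated from low to high. Against untreated cells Itgav fell by 0.61 ± 0.10 on the log2 scale in AdeCre cells (SE, a 1.53-fold decrease, adjusted p = 0.00429), and the call held whichever array was left out (adjusted p = 0.023 without untreated replicate 2). Against AdeLacZ cells it fell by 0.37 ± 0.09 (SE, 1.29-fold, adjusted p = 0.0476). That call is at the edge of the threshold: the difference ran from -0.42 to -0.34 when single arrays were left out, but it passed in none of those 8 fits (adjusted p = 0.055 without either untreated array and 0.063 to 0.141 without any one of the virus-treated arrays). The difference of AdeLacZ from untreated cells was -0.24 ± 0.10 (SE, adjusted p = 0.223).

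Itgb5, whose beta-5 chain pairs with alpha-v in an integrin that adenoviruses use for uptake, changed the other way against untreated cells. Probe ILMN_2663613 read 1270, 1064 and 1040 units in AdeCre replicates 1, 2 and 3, against 951, 864 and 1042 units in AdeLacZ replicates 1, 2 and 3 and 678 and 765 units in untreated replicates 1 and 2. Both virus arms lay above the untreated arrays, and the virus arms overlapped slightly, AdeLacZ replicate 3 being as bright as AdeCre replicate 3. Itgb5 rose by 0.62 ± 0.13 on the log2 scale in AdeCre against untreated cells (SE, 1.53-fold, adjusted p = 0.0113). It passed without untreated replicate 2 (0.70, adjusted p = 0.0294) and did not without untreated replicate 1 (0.53, adjusted p = 0.102). The difference of AdeLacZ from untreated cells was 0.39 ± 0.13 (SE, adjusted p = 0.117, 95% interval 0.10 to 0.67), and that of AdeCre from AdeLacZ cells was 0.23 ± 0.12 (SE, adjusted p = 0.276, 95% interval -0.02 to 0.49).

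The proximal promoters of these genes are shown because the subunits of 1 receptor changed in opposite directions against untreated cells in AdeCre cells. Each window runs from 250 bases before to 50 bases after the annotated start, 5′ to 3′, from RefSeq on GRCm38.p6, at chr2:83724147-83724446 (plus strand) for Itgav and chr16:33829415-33829714 (plus strand) for Itgb5. Capitals mark the GC box GGGCGG on either strand, the letters bound by Sp1-type factors.
Itgav: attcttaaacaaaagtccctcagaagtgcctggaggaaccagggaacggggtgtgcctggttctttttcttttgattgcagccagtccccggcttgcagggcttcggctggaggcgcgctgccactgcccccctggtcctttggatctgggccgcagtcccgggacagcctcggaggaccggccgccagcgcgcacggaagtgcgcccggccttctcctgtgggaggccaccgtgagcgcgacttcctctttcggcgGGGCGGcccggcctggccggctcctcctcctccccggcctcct
Itgb5: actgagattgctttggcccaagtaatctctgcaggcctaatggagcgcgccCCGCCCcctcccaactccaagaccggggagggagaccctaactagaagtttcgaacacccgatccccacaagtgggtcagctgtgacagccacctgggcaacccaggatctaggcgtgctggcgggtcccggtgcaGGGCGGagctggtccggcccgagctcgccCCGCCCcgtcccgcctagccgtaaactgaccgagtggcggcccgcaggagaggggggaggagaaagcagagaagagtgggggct
Both windows are rich in G and C, at 67.3% for Itgav and 65.7% for Itgb5, against a median of 52.7% over 32851 promoters of the same length. The GC box occurred 1 time in the Itgav window and 3 times in the Itgb5 window, and 35.7% of all promoters hold at least 1. No overlap between GC box matches occurred. Neither window held the TATA box TATAAA (13.6% of promoters), the TEAD letters GGAATG (14.7%), the SOX letters ACAAAG (18.7%), the AP-1 letters TGANTCA (7.81%) or the interferon-stimulated response element (3.44%), searched on both strands. These are matches of letters in a short window and are given as a description. The members had 3 promoters in the table, and the third, that of Itgb1, held 1 match each of the GC box, the TEAD letters and the SOX letters.

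Itgb1 encodes the beta-1 chain, which pairs with alpha-v and with many other alpha chains and is the most widely used integrin beta chain. Its probes, both annotated to the same transcript, disagreed. ILMN_2789077 read 334, 323 and 309 units in AdeCre replicates 1, 2 and 3, against 358, 365 and 330 units in AdeLacZ replicates 1, 2 and 3 and 260 and 234 units in untreated replicates 1 and 2. Both virus arms lay above the untreated arrays and overlapped each other. The rise of AdeLacZ against untreated cells was 0.46 ± 0.11 on the log2 scale (SE, 1.38-fold, adjusted p = 0.0326), and the difference of AdeCre from untreated cells was 0.35 ± 0.11 (SE, adjusted p = 0.0528). The AdeLacZ call passed in 2 of 8 fits that left out 1 array, with adjusted p = 0.12 without untreated replicate 2, 0.108 without untreated replicate 1, 0.0673 to 0.0939 without an AdeLacZ array and 0.0533 without AdeCre replicate 2.

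The other Itgb1 probe, ILMN_2609304, read 404, 407 and 368 units in AdeCre replicates 1, 2 and 3, against 394, 512 and 443 units in AdeLacZ replicates 1, 2 and 3 and 484 and 514 units in untreated replicates 1 and 2. Here the AdeCre arrays were below the untreated arrays, and the AdeLacZ arrays spanned both groups. The differences were -0.32 ± 0.12 for AdeCre against untreated cells (SE, adjusted p = 0.114), -0.15 ± 0.12 for AdeLacZ against untreated cells (SE, adjusted p = 0.549) and -0.18 ± 0.11 for AdeCre against AdeLacZ cells (SE, adjusted p = 0.395). In AdeCre against AdeLacZ cells the probe ILMN_2789077 differed by -0.11 ± 0.09 (SE, adjusted p = 0.535). Within an array the log2 signal of ILMN_2789077 minus that of ILMN_2609304 was -0.31 to -0.23 in AdeCre cells and -0.46 to -0.13 in AdeLacZ cells, against -1.04 and -0.83 in untreated cells. This measure was chosen after the values were seen and is given without a test, since 3 against 2 arrays cannot go below a two-sided exact permutation p of 0.2. Each Itgb1 probe is therefore described on its own.

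**Figure D2:**
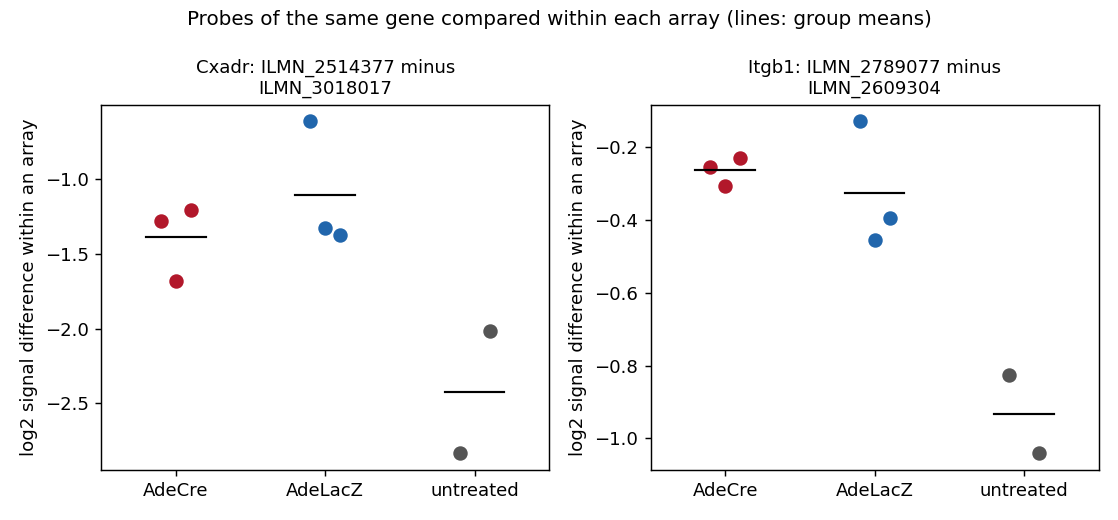
Difference in log2 signal between a pair of probes of the same gene on the same array (points), with group means as lines, for Cxadr on the left and Itgb1 on the right. The Cxadr panel restates the pattern for which its first probe was picked. The virus-treated arrays lie above the untreated arrays, with untreated values of -2.83 and -2.01 for Cxadr and -1.04 and -0.83 for Itgb1.

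Itgb3 encodes the beta-3 chain, which joins alpha-v in another integrin that binds the penton base and joins the alpha-IIb chain on platelets. Its probe ILMN_3002896 was near background. It read 10.3, 15.6 and 9.70 units in AdeCre replicates 1, 2 and 3, against 16.7, -2.86 and 7.59 units in AdeLacZ replicates 1, 2 and 3 and 8.53 and 0.086 units in untreated replicates 1 and 2. All 3 AdeCre arrays, 1 of 3 AdeLacZ arrays and 0 of 2 untreated arrays exceeded the floor, and the AdeCre arrays alone carried the probe past the filter on low values. No p is therefore given for Itgb3, and its log2 values are a description. The log2 means were 5.37 in AdeCre cells and 5.17 in AdeLacZ cells, against 5.08 in untreated cells. The AdeCre and AdeLacZ arrays overlapped, and their log2 difference of 0.21 ± 0.18 (SE) was -0.0024 without AdeLacZ replicate 2. Of the megakaryocyte and platelet markers, 3 of the 6 with a named probe were above the floor on all arrays, 5 were tested, and their summed intensity was 155 to 197 in AdeCre cells and 184 to 222 in AdeLacZ cells, against 164 to 175 in untreated cells. Of these 5, 1 (Pf4, a platelet chemokine gene) rose in AdeCre against untreated cells (6.61% of all tested probes rose) and 0 passed in the other comparisons.

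**Figure D3:**
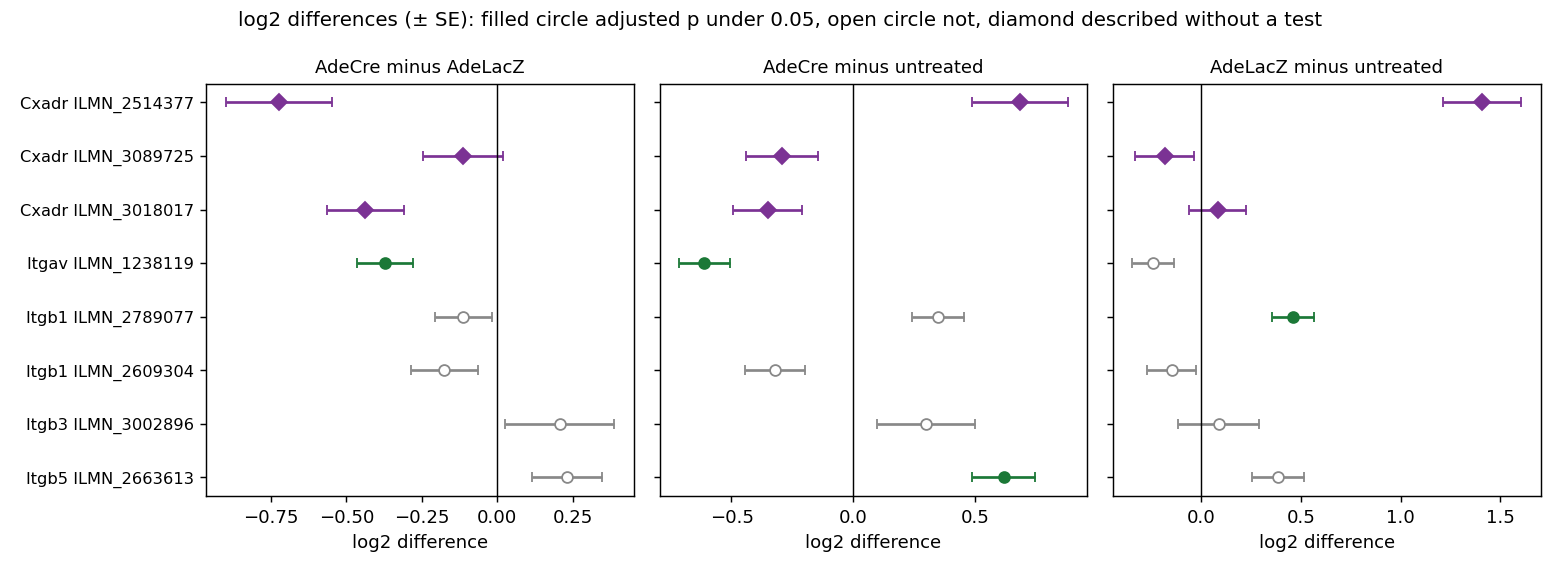
log2 differences (horizontal axis) with limma's SE for the 8 probes in the 3 comparisons. Filled circles mark integrin probes with an adjusted p under 0.05, open circles the other integrin probes (Itgb3 passed the filter on low values through its AdeCre arrays alone), and diamonds the Cxadr probes, which are described without a test. Itgav lies at -0.37 and -0.61 in AdeCre cells against AdeLacZ and untreated cells, and Itgb5 at 0.62 against untreated cells.

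The other genes of attachment, uptake and transport were followed in 7 lists of 138 genes, of which 116 had a named probe and 98 were tested on their brightest probe. The shares below set these brightest probes against all tested probes, dim ones included, so the sets are unlike. In AdeCre against AdeLacZ cells 4 rose and 2 fell (6.12% of the 98, against 5.03% of all tested probes). In AdeCre against untreated cells 13 rose and 6 fell (19.4%, against 13.7%), and in AdeLacZ against untreated cells 3 rose and 3 fell (6.12%, against 5.23%). Counts without untreated replicate 2 are not given, since that fit keeps 1 untreated array. The list medians lay between -0.04 and 0.12, 0.02 and 0.22, and -0.08 and 0.16 in these comparisons, where the medians over all tested probes were 0.01, 0.00 and -0.01. Without untreated replicate 2 the list medians lay between 0.05 and 0.25 in AdeCre against untreated cells. In AdeLacZ against untreated cells they lay between -0.0002 and 0.30. Called genes ran in both directions, and 23 genes account for all 31 calls. Among them Cd86 met the filter on low values through the virus arms alone.

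Among 12 other integrin subunit genes, 4 rose and 0 fell in AdeCre against untreated cells, where 6.61% and 7.08% of all tested probes did. In AdeLacZ against untreated cells 2 rose and 0 fell (2.73% and 2.5% of all tested probes), and 0 passed in AdeCre against AdeLacZ cells (limma, list median 0.07). Itga11, which encodes the alpha-11 chain of a collagen receptor with beta-1, read 1459 to 1675 units in AdeCre cells and 1152 to 1185 in AdeLacZ cells, against 488 to 588 in untreated cells. It rose by 1.48 ± 0.12 and 1.09 ± 0.12 in AdeCre and AdeLacZ against untreated cells (SE, adjusted p = 1.47e-04 and 0.00104), and its other tested probes gave 1.39 and 0.49 in AdeCre against untreated cells. Itga7, a laminin receptor chain of muscle, rose by 0.87 ± 0.16 and 0.83 ± 0.16 in the same comparisons (adjusted p = 0.00624 and 0.0151). The 6 skeletal muscle markers had a summed intensity of 2759 to 3095 in AdeCre cells and 2170 to 2288 in AdeLacZ cells, against 1732 to 1949 in untreated cells. Of these 3 were above the floor on all arrays and tested, and Pax3 and Pax7 were above it on none. Of the 3, 1 (Des, the muscle intermediate filament gene) rose in AdeCre against untreated cells by 0.78 (adjusted p = 0.00195), where 6.61% of all tested probes rose. With limma 0 passed in AdeLacZ against untreated cells. In AdeCre against AdeLacZ cells 1 rose and 0 fell (1.59% and 3.44% of all tested probes). The median log2 difference of the 3 was -0.19 there, against 0.18 and 0.28 in AdeCre and AdeLacZ against untreated cells. The part of the muscle markers in the Itga7 result was not tested. In AdeCre against untreated cells Itga9, the chain of a receptor for tenascin and related matrix proteins, rose by 0.43 ± 0.11 (adjusted p = 0.0302), and Itgb4, the beta chain of hemidesmosomes, rose by 0.45 ± 0.12 (adjusted p = 0.0376, but -0.16 on a dimmer probe).

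CAR has relatives among junction proteins and binds scaffold proteins inside the cell. Of 11 such genes tested on their brightest probe, 2 rose and 0 fell in AdeCre against untreated cells (6.61% and 7.08% of all tested probes) and 0 passed in the other comparisons. They were Jam2, a junctional adhesion molecule (0.89 ± 0.15, adjusted p = 0.00459, with other probes at 0.66, 0.21 and 0.14), and Lnx2, a relative of the CAR-binding ubiquitin ligase LNX (0.64 ± 0.14, adjusted p = 0.012). In AdeLacZ against untreated cells the brightest Jam2 probe gave 0.45 (limma adjusted p = 0.124). There the next brightest rose by 0.55 (adjusted p = 0.0188), and the others gave 0.49 and 0.09. Of 17 genes for heparan sulfate and other attachment factors, 1 fell in AdeCre against AdeLacZ cells (3.44% of all tested probes fell). It was Sdc1, a heparan sulfate proteoglycan of the cell surface, at 120 to 156 units in AdeCre cells, against 269 to 291 in AdeLacZ cells and 251 to 307 in untreated cells. The fall was 0.84 ± 0.12 against AdeLacZ cells (adjusted p = 0.00526) and 0.84 ± 0.13 against untreated cells (adjusted p = 0.00289), and the next brightest Sdc1 probe gave -0.44 and -0.39. Its relative Sdc3 rose in AdeCre against untreated cells (0.54 ± 0.11, adjusted p = 0.0121). Cd86, an immune co-stimulator used by some adenoviruses, is counted there too, but it met the filter on low values through the virus arms alone. It read 12.7 to 14.6 units in AdeCre and 10.2 to 13.6 in AdeLacZ cells, against 2.09 and 6.36 in untreated cells. Its values are therefore a description, and no p is given for it. Sdc4 fell in AdeLacZ against untreated cells (-0.58 ± 0.14, adjusted p = 0.0423).

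None of 8 tested integrin ligand genes passed in any comparison with limma, and their medians were 0.10, 0.22 and 0.01. Of 15 focal adhesion genes 2 rose in AdeCre against AdeLacZ cells (1.59% of all tested probes rose). They were Lims2, an adaptor that binds integrin-linked kinase (0.46 ± 0.10, adjusted p = 0.0328, but -0.13 on a dimmer probe), and the kinase gene Src (0.47 ± 0.09, adjusted p = 0.0211). Lims2 also rose in AdeCre against untreated cells (0.75 ± 0.12, adjusted p = 0.00259). Fermt1, an activator of integrins in epithelia, rose by 0.59 ± 0.10 and 0.55 ± 0.10 in AdeCre and AdeLacZ against untreated cells (adjusted p = 0.00507 and 0.014).

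Of 19 genes of clathrin uptake and early endosomes, Cltb, a clathrin light chain, rose in AdeCre against AdeLacZ cells (0.50 ± 0.10, adjusted p = 0.0225). In AdeCre against untreated cells 1 of the 19 rose and 3 fell (6.61% and 7.08% of all tested probes). Epn2, an endocytic adaptor, rose (0.41 ± 0.11, adjusted p = 0.0344, with 4 other probes at 0.02 to 0.42), and Rab5a, a GTPase of early endosomes, fell (-0.49 ± 0.11, adjusted p = 0.0132). The adaptor subunit gene Ap2b1 fell in AdeCre (-0.59 ± 0.15, adjusted p = 0.0249) and in AdeLacZ cells (-0.65 ± 0.15, adjusted p = 0.0315). Dnm1, the neuronal dynamin gene, was not above background in AdeLacZ cells and fell at least 1.52-fold there (adjusted p = 0.00258), and in AdeCre cells it fell by 0.66 ± 0.14 (adjusted p = 0.0102).

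Of 16 genes of transport to the nucleus, 1 rose and 1 fell in AdeCre against AdeLacZ cells (1.59% and 3.44% of all tested probes). Dctn1, a subunit of the dynein cofactor dynactin, was at 216 to 259 units in AdeCre cells, against 19.8 to 142 in AdeLacZ cells and 206 to 214 in untreated cells. It was higher by 1.53 ± 0.33 in AdeCre than in AdeLacZ cells (adjusted p = 0.0277), while its difference from untreated cells was 0.17 in AdeCre cells (adjusted p = 0.816) and -1.36 in AdeLacZ cells (adjusted p = 0.0623), so the AdeLacZ arrays were the ones that stood low. Tnpo1, an import receptor, was not above background in AdeCre cells and was at least 1.22-fold lower than in AdeLacZ cells (adjusted p = 0.022) and at least 1.80-fold lower than in untreated cells (adjusted p = 0.0019). Against untreated cells the motor gene Dync1h1 (0.51 ± 0.12, adjusted p = 0.016) and the import receptor gene Kpnb1 (0.39 ± 0.11, adjusted p = 0.0454) also rose, and Mib1, a ubiquitin ligase with a part in uncoating in human cells, fell (-0.48 ± 0.12, adjusted p = 0.0201). None of the 16 passed in AdeLacZ against untreated cells with limma.

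Of these 31 calls 9 held whichever array was left out: Itga11 in both comparisons, Sdc1 in both, Jam2, Lims2, Fermt1 and Tnpo1 in AdeCre against untreated cells, and Dnm1 in AdeLacZ against untreated cells. Leaving out untreated replicate 1 or 2 ended 17 and 10 of them, AdeLacZ replicate 1, 2 or 3 ended 7, 10 and 9, and AdeCre replicate 1, 2 or 3 ended 9, 11 and 9, with adjusted p values up to 0.297 (Sdc4, without untreated replicate 1). The 10 calls lost without untreated replicate 2 were Itga9, Cd86, Dnm1, Ap2b1, Epn2, Mib1 and Kpnb1 in AdeCre and Sdc4, Fermt1 and Ap2b1 in AdeLacZ against untreated cells, with adjusted p values of 0.0532 to 0.204 there. Cd86 passed in none of these fits and Kpnb1 in 1.

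**Figure D4:**
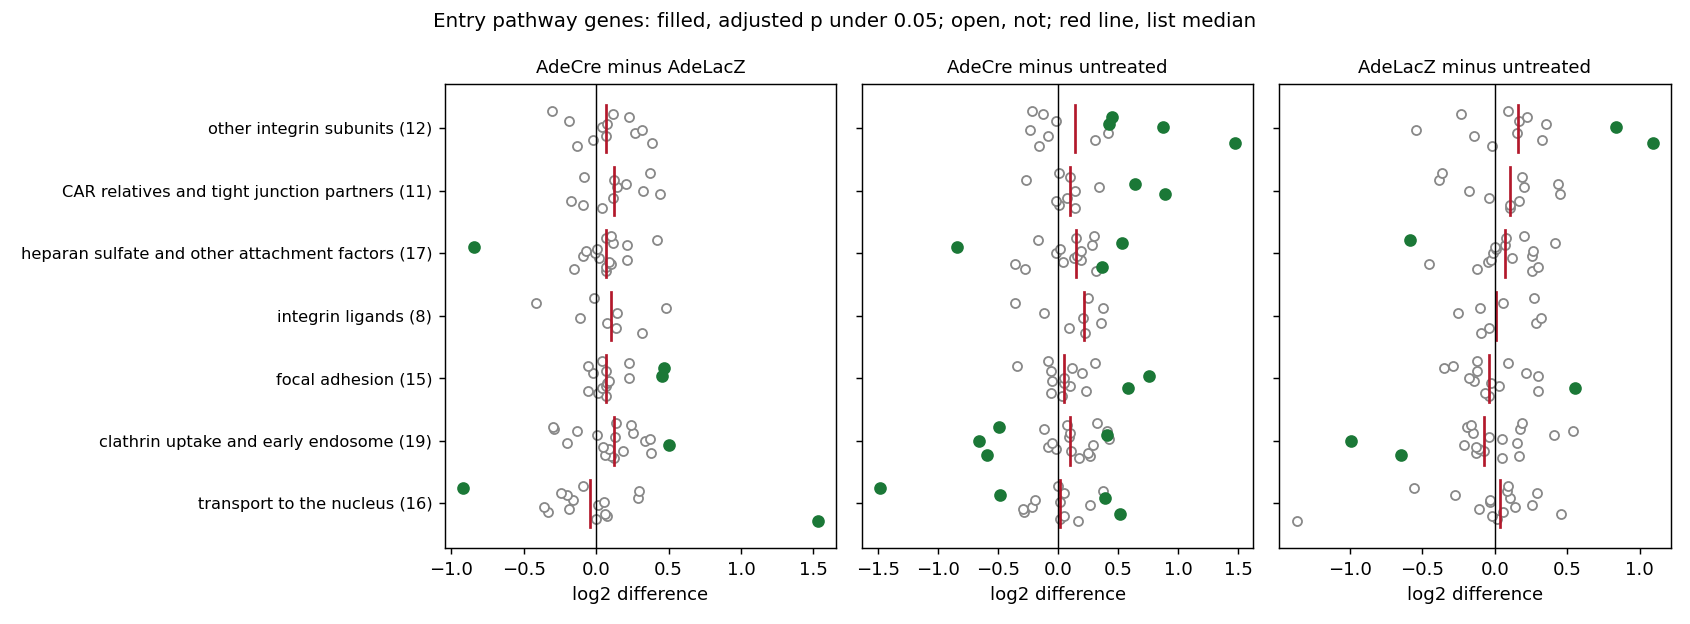
log2 differences of the 98 tested genes of the 7 entry pathway lists (number of genes in brackets) in the 3 comparisons. Each point is a gene on its brightest probe, filled where the adjusted p is under 0.05, and the red line is the list median. Itga11 is the highest point of the other integrin subunits at 1.48 in AdeCre against untreated cells, and Sdc1 the lowest of the attachment factors at -0.84.

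For the brightest probe of each member, the tested probes of other genes with the most similar profile were named by the root mean square difference between log2 signals over the 8 arrays, each probe centred on its mean. Nearest to Cxadr probe ILMN_3018017 were Fv1 (0.071 log2 units), Polr3k (0.080), Idh2 (0.083), Gpr108 (0.084) and Ppm1d (0.091). Nearest to Itgav were Vangl2 (0.054), Nudt11 (0.056) and Rnf4 (0.059), to Itgb5 Ubn2 (0.050), Zfp692 (0.052) and Dag1 (0.059), to Itgb1 probe ILMN_2609304 Spats2l (0.056), Rnps1 (0.063) and Gsk3a (0.063), and to Itgb3 Plpp1 (0.103), Gal3st4 (0.118) and Uros (0.123). For Cxadr probe ILMN_2514377, chosen after its values were seen, the nearest were farther away: Lama1 (0.234), a laminin chain gene, Ddx58 (0.239), a sensor of viral RNA, Gbp2 (0.244), an interferon-induced GTPase gene, Rem2 (0.246) and the chemokine gene Cxcl10 (0.249). For Ddx58 the mean log2 signal was 7.33 in AdeCre and 7.90 in AdeLacZ cells, against 6.36 in untreated cells. The mean of the Gbp2 probe was below the floor in AdeCre and in untreated cells. That of the Fv1 probe was below it in AdeCre cells, at 7.30 units, and the Itgb3 probe was itself near background.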

How the data were processed

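Total RNA was labelled with biotin and hybridised to Illumina bead arrays, 1 array per sample. The deposited value table holds an intensity per probe, background-subtracted and on a linear scale, and per the submitters' processing notes BeadStudio 2.1 was among the tools. How the authors subtracted background and normalized is not given in the sources used here. Values below 0 made up 25.7%, and the arrays differed by at most 0.190 units at any rank. A second table has 32 columns of per-sample values named by chip position, none of which could be matched to a sample, so it was left out.

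Intensities were corrected with normexp (offset 16) in limma 3.58.1 (R 4.3.3) and put on the log2 scale. The offset shrinks changes of dim probes. The detection floor was 1.645 times an SD estimated for each array from negative values mirrored around 0. Probes above it on at least 2 of 8 arrays were tested (15944, or 62.0%). They entered 1 linear model with 3 groups (lmFit, eBayes, 5 residual and 5.64 prior degrees of freedom), with Benjamini-Hochberg adjustment over all tested probes. Where a whole group lay below the floor, its level was set to the lowest signal above the floor on each array, and folds are lower limits. The fit was tested on simulated data. Of all probes 23978 had 1 gene symbol and 1719 none, and 23962 were matched by gene ID to the RefSeq table. The members and the gene lists were chosen with earlier results of these data known, and named genes followed a fixed rule: all member probes, up to 5 called genes per pathway list, and the nearest profiles. Alternatives covered background correction, normalization, filter, array weights, a trended and robust variance prior, a replicate block, the groups in the fit and each array left out. Python 3.11.15 and matplotlib 3.10.9 drew the figures.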

Additional observations from a re-analysis of the deposited data

How the results depend on the processing

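Between AdeCre and AdeLacZ cells 802 probes passed, against 1420 with an offset of 50, 503 without background correction, 406 without a filter, 1432 with trend and robust fitting and 192 to 774 with single arrays left out. Between AdeLacZ and untreated cells 834 passed, against 1440, 549, 486, 1500 and 168 to 849 in the same settings, and between AdeCre and untreated cells 2183 passed, against 712 to 2008 with single arrays left out. The 1 integrin call (Itgav) between AdeCre and AdeLacZ cells became 0 without background correction, without a filter, with only those 2 groups in the fit and with any array left out (0 to 0). The 1 call (Itgb1) between AdeLacZ and untreated cells became 2 with an offset of 50 or with trend and robust fitting, 0 without a filter or with only 2 groups, and 0 to 1 with single arrays left out. The 2 calls (Itgav and Itgb5) between AdeCre and untreated cells became 4 with trend and robust fitting, 3 with an offset of 50 or with only probes above the floor on all arrays, and 1 to 2 with single arrays left out. Quantile normalization and array weights moved no integrin count. Among the members only dim Itgb3 changed sign, between -0.0024 and 0.39 for AdeCre against AdeLacZ cells and between -0.0935 and 0.30 (-0.0914 without untreated replicate 2) for AdeLacZ against untreated cells with single arrays left out, and the untested Cxadr probes ILMN_3018017 (-0.14 to 0.31, AdeLacZ against untreated) and ILMN_3089725 (-0.19 to 0.02, AdeCre against AdeLacZ). The causes were not tested.

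With the replicate number as a block (replicate block), 498, 1473 and 442 probes passed in AdeCre against AdeLacZ, AdeCre against untreated and AdeLacZ against untreated cells, with 0, 2 and 0 integrin calls. The deviations of same-numbered AdeCre and AdeLacZ arrays correlated at 0.02, -0.0014 and -0.06. The untreated arrays were not in this check, and it cannot show whether same-numbered samples were prepared together. A block for the slide was not run, because no slide is named for the mapped arrays. Dimness limits Itgb3, Cxadr probe ILMN_3089725 and the untreated values of Cxadr probe ILMN_2514377.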
